A study of Rattus norvegicus with 16 samples.

Results

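The genes described here encode 10 proteins of the cardiac Z-disc and of the Xin family, and were taken by name from the 17245 genes measured in the right ventricular wall of rats. They are the Xin repeat genes Xirp1 and Xirp2, the actin-linked scaffold genes Synpo2l and Flnc, the alpha-actinin genes Actn1 and Actn2, the alpha-actinin partners Ldb3 and Myoz2, and Nebl and Des. All 10 had at least 1 probe set with a single gene symbol, and no filter on dim values was applied, so each of them was tested. Expression was measured on 16 arrays, each of 1 sample from a male Wistar rat (160 to 180 g), namely 5 samples named RVF+, 4 named RVF and 7 named CON. The series' text gives CON as the controls and concerns failure of the right ventricle under chronic pressure, but neither RVF+ nor RVF is spelled out. Rats had undergone either a sham operation or banding of the pulmonary artery, a narrowing that raises the pressure against which the right ventricle pumps, and which sample had which operation is not in the labels. Arrays are called by their group and title number, RVF+ 8 to 12, RVF 13 to 16 and CON 1 to 7. The labels do not tie the samples to separate animals, and the p-values therefore reflect only sample-to-sample spread, which may be technical.

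The Z-disc anchors the thin filaments of neighbouring sarcomeres. Alpha-actinin crosslinks actin there, and a layer of PDZ and LIM domain proteins, filamin and calsarcins links it to titin, to the membrane and to signalling enzymes such as calcineurin. Xin repeat proteins bind actin at the intercalated disc and gather with filamin C at damaged sites in myofibrils. Desmin filaments tie neighbouring Z-discs to each other and to the membrane and nucleus.

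The promoters of these genes are shown because Xirp2 is known in rodents as a target of the transcription factor MEF2. RefSeq (build GRCr8) held promoters for all 10 genes by symbol, and for 9 of them also by the gene identifier of the array annotation, Xirp1 being matched by symbol only. In the 250 bases before the annotated starts, searched on both strands, the MEF2 box was found in Xirp1, Xirp2, Synpo2l and Myoz2, 4 of 10 genes, and in 1.68% of all 33469 promoters. The CArG box, the element of serum response factor, was found in Ldb3 and Nebl and in 1.5% of all promoters. A member was counted if any of its annotated starts had the box, whereas the shares of all promoters count each promoter, so the 2 are not alike. In the lines that follow, capitals mark the MEF2 box, or in Ldb3 the CArG box, and each sequence runs 5′ to 3′ toward the start.
Xirp1, chr8:128635012-128635261, minus strand: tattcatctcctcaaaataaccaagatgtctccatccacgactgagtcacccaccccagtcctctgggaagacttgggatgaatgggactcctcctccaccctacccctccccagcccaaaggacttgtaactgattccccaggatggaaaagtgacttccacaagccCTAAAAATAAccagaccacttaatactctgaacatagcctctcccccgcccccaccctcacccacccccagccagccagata
Xirp2, chr3:72533936-72534185, plus strand: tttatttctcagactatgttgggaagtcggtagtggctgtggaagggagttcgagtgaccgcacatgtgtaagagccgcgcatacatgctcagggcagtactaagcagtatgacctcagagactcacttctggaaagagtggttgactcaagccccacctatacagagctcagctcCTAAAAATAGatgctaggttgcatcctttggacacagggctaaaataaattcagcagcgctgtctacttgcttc
Synpo2l, chr15:3684760-3685009, plus strand: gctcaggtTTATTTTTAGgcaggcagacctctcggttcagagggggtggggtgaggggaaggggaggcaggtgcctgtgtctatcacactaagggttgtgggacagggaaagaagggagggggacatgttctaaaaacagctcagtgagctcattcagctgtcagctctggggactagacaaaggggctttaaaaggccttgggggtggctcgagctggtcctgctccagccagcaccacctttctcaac
Myoz2, chr2:213852779-213853028, minus strand: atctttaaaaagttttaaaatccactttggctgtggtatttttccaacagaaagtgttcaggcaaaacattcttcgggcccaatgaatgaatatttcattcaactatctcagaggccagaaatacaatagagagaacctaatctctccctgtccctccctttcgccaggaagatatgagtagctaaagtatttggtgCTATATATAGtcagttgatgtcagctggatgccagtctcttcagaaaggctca
Ldb3, chr16:9924680-9924929, minus strand: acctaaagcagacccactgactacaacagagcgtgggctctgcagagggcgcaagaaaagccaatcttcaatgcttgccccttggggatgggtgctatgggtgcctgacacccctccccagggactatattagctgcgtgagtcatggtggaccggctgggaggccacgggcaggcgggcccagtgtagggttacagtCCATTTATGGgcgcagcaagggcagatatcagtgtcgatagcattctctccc
The MEF2 box lay 82 to 73 bases before the start in Xirp1, 74 to 65 in Xirp2, 242 to 233 in Synpo2l and 53 to 44 in Myoz2. Xirp1 has 3 annotated starts, of which 2 share that box and the third, further downstream, has none in its window. A match of letters is a description of the sequence and was not tested for binding.

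Values are log2 of the deposited intensity, so a difference of 1 is a 2-fold change, and differences are given with their standard error. The test was limma across all 17245 genes with Benjamini-Hochberg adjustment, two-sided, with a threshold of 0.05. Arrays agreed closely in overall level (median intensity 27.1 to 29.3), but RVF+ 8 lay furthest from the mean of CON, with a root mean square difference of 0.71 log2 units, against 0.33 to 0.45 in the remaining arrays of RVF+ and RVF and 0.16 to 0.21 in CON. Myl2, the ventricular regulatory light chain, was bright throughout, lying between 9.13 and 9.90 in RVF+, 9.72 and 9.97 in RVF and 9.84 and 10.03 in CON. Myh6 and Tnni3, other heart muscle markers, were bright too, but every RVF+ and RVF array lay below CON. Myh6 ran from 9.54 to 11.75 in RVF+, 11.39 to 11.95 in RVF and 12.44 to 12.57 in CON. Tnni3 ran from 10.92 to 11.91 in RVF+, 11.75 to 11.84 in RVF and 12.07 to 12.14 in CON. Myl7, the atrial light chain, ran from 6.09 to 8.24 in RVF+, from 5.67 to 7.26 in RVF and from 6.22 to 10.79 in CON, so it varied most among the CON arrays.

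Against CON, 6 of the 10 genes passed the test in RVF+, Actn1, Xirp2 and Flnc being higher and Ldb3, Nebl and Actn2 lower. Among all genes 27.7% passed, 14.1% higher and 13.6% lower. In RVF 5 of the 10 passed, Xirp2, Actn1, Flnc and Synpo2l being higher and Ldb3 lower, where 17.1% of all genes passed, 8.86% higher and 8.29% lower. Between RVF+ and RVF none of the 10 passed, as 0% of all genes did. Both differences from CON rest on the same CON arrays. The members were picked with results of these data known, so their count describes them and is no test. Moves in both directions thus stood side by side within the Z-disc, and the median of the 10 differences was -0.08 in RVF+ and 0.11 in RVF, against -0.01 over all genes in each. The median size of the difference, its sign left out, was 0.36 in RVF+ and 0.38 in RVF, against 0.16 and 0.14 over all genes. These shares and medians over all genes include dim genes, whereas all 10 genes are brighter than the median of 5.57. Of all genes 4771 passed in RVF+ and 2957 in RVF. With only genes at or above the median level tested, 3924 and 2664 passed, so the share passing is larger among bright genes. The median sizes were not taken again for bright genes.

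**Figure D1:**
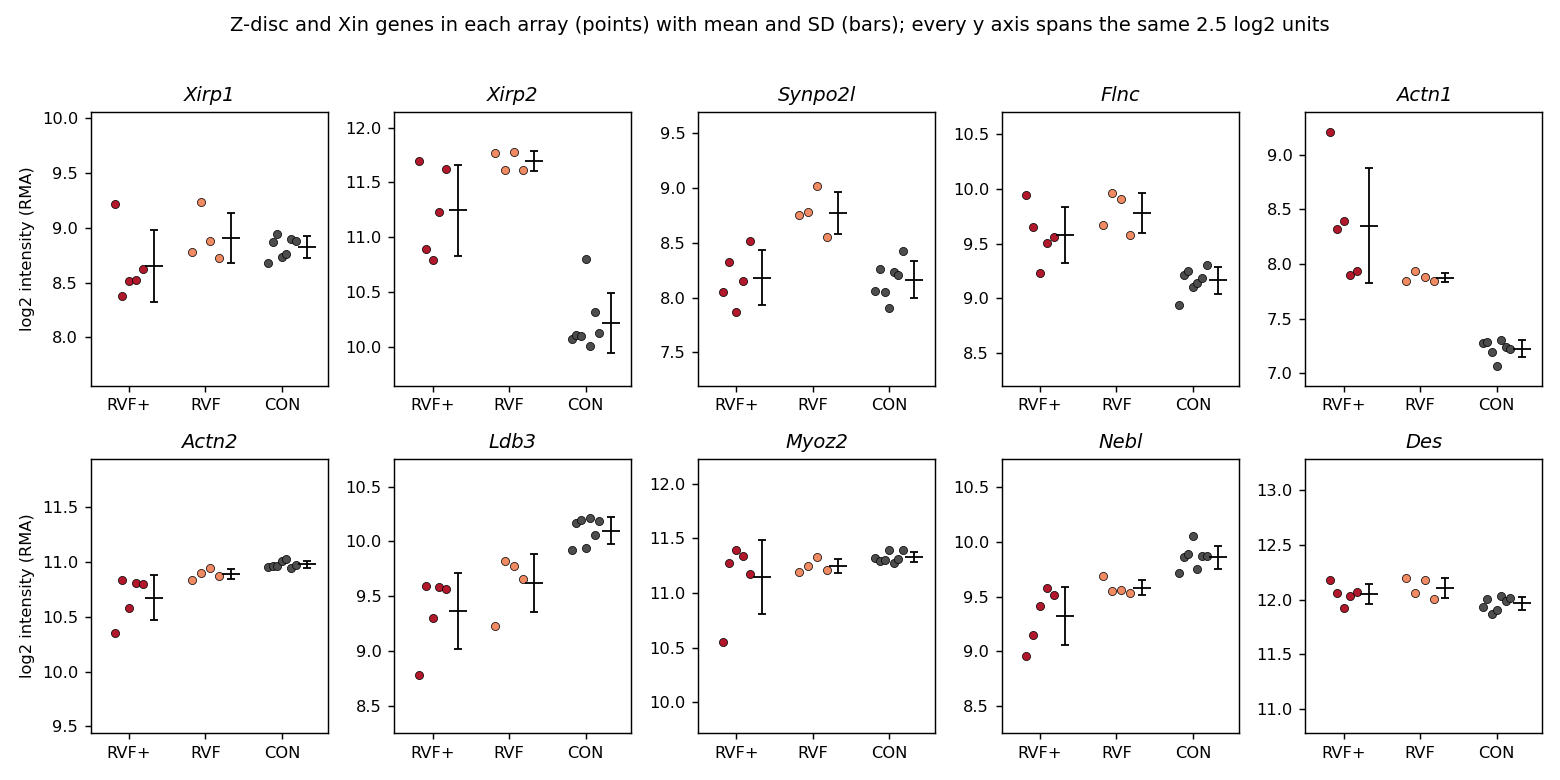
Log2 intensity of the 10 genes in each array (points), by group, with mean and SD beside them; each vertical axis spans 2.5 log2 units. Xirp2 lay at 11.61 to 11.78 in the 4 RVF arrays and at 10.00 to 10.8 in the 7 CON arrays, while Des stayed between 11.87 and 12.19 in all arrays.

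Xirp2, the Xin repeat protein also called myomaxin, rose in both groups. Its log2 values were 11.69, 10.89, 10.79, 11.23 and 11.62 in RVF+ 8 to 12, then 11.77, 11.61, 11.78 and 11.62 in RVF 13 to 16, and in CON the lowest was 10.00, the median 10.10 and the highest 10.8. The RVF arrays lay close together and above every CON array, whereas RVF+ was spread widely and its lowest array fell just below CON 4, the highest control. Xirp2 was 2.04-fold higher in RVF+ than in CON (1.03 ± 0.16, adjusted p = 0.000137, 4 of 5 arrays above all CON arrays) and 2.78-fold higher in RVF than in CON (1.48 ± 0.17, adjusted p = 1.43e-05, 4 of 4 arrays above). In RVF its rise was the 69th largest among all genes. RVF+ was below RVF by 0.45 ± 0.18 (95% interval -0.83 to -0.07), which did not pass over all genes (adjusted p = 0.618).

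Xirp1, the other Xin repeat gene, did not follow it. A MEF2 box stands before the start of both genes, and its part in their levels was not tested. The values of Xirp1 were 9.22, 8.37, 8.52, 8.53 and 8.63 in RVF+ 8 to 12 and 8.78, 9.24, 8.88 and 8.73 in RVF 13 to 16, against a lowest value of 8.68, a median of 8.87 and a highest of 8.94 in CON. In RVF+ 4 arrays lay below all CON arrays and RVF+ 8 lay above them all, and in RVF the arrays fell within or above the range of CON. The difference from CON was -0.17 ± 0.12 in RVF+ (adjusted p = 0.333) and 0.09 ± 0.13 in RVF (adjusted p = 0.718). RVF+ 8 decided the first of these, for without it the difference was -0.31 ± 0.09 and passed (adjusted p = 0.0177). The annotation pairs 3 probe sets with Xirp1, and the 2 dimmer ones gave -0.14 and -0.16 in RVF+ and 0.10 and 0.11 in RVF, none of them passing.

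Because the 2 Xin genes are paralogs, their difference was also taken within each array, where a change of its mean between groups shows that they changed unequally. The value of Xirp2 minus Xirp1 averaged 2.59 ± 0.27 in RVF+ (SD, n = 5), 2.79 ± 0.28 in RVF (SD, n = 4) and 1.39 ± 0.31 in CON (SD, n = 7). It was larger by 1.20 in RVF+ than in CON (two-sided exact permutation test, p = 0.00126 over 792 splits, adjusted p = 0.00379 over 6 such tests) and by 1.39 in RVF than in CON (exact permutation p = 0.00303 over 330 splits, adjusted p = 0.00455), each the smallest p its design allows. RVF+ and RVF differed by -0.19 (exact permutation p = 0.325 over 126 splits, adjusted p = 0.325). The pair was picked with the separate values known, so these tests add a size and not independent evidence.

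Flnc encodes filamin C, which crosslinks actin and binds Xin at the Z-disc and the intercalated disc. Its values were 9.94, 9.65, 9.23, 9.50 and 9.56 in RVF+ 8 to 12 and 9.67, 9.96, 9.91 and 9.58 in RVF 13 to 16, and CON ran from 8.94 through a median of 9.18 to 9.31. All RVF arrays and all but 1 RVF+ array lay above every CON array. The rise was 1.33-fold in RVF+ (0.41 ± 0.11, adjusted p = 0.00708) and 1.53-fold in RVF (0.62 ± 0.11, adjusted p = 0.00108).

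Synpo2l, which encodes an actin-associated Z-disc protein that binds alpha-actinin, was higher in RVF and not in RVF+. Its values were 8.05, 8.32, 7.87, 8.15 and 8.52 in RVF+ 8 to 12 and 8.75, 8.78, 9.02 and 8.55 in RVF 13 to 16, while CON ran from 7.91 through a median of 8.21 to 8.42. The RVF arrays lay above all RVF+ and all CON arrays, and the RVF+ values covered nearly the same range as CON. RVF exceeded CON 1.53-fold (0.61 ± 0.12, adjusted p = 0.00194), and RVF+ differed from CON by 0.02 ± 0.11 (adjusted p = 0.925, 95% interval -0.22 to 0.26). The direct difference of RVF+ from RVF was -0.59 ± 0.13 (unadjusted p = 0.00027), the 49th lowest among all genes, but with adjustment over all genes it did not pass (limma adjusted p = 0.403). By that test the response of Synpo2l is not shown to differ between RVF+ and RVF.

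Actn1 and Actn2 moved in opposite directions in RVF+, and in RVF only Actn1 passed. Actn1, the alpha-actinin of stress fibres and of non-muscle cells, had values of 9.21, 8.32, 8.39, 7.90 and 7.94 in RVF+ 8 to 12 and of 7.84, 7.93, 7.88 and 7.84 in RVF 13 to 16, against 7.07 to 7.30 with a median of 7.24 in CON. Every RVF+ and RVF array lay above every CON array, and the RVF arrays were nearly identical (SD 0.04) while RVF+ was spread over more than a log2 unit. Actn1 was 2.18-fold higher in RVF+ (1.12 ± 0.16, adjusted p = 5.67e-05) and 1.57-fold higher in RVF (0.65 ± 0.17, adjusted p = 0.0132), and without RVF+ 8 the rise in RVF+ was 0.91 ± 0.09 (adjusted p = 1.82e-06). RVF+ exceeded RVF by 0.48 ± 0.18, the only positive difference among the 10 genes, and did not pass (adjusted p = 0.596).

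Actn2, the sarcomeric alpha-actinin of heart and skeletal muscle, had 10.35, 10.83, 10.58, 10.81 and 10.80 in RVF+ 8 to 12 and 10.84, 10.90, 10.95 and 10.87 in RVF 13 to 16. In CON it lay between 10.95 and 11.02 with a median of 10.97. The 3 groups did not overlap, RVF+ lying lowest and CON highest, although the gaps between neighbouring groups were small. The fall of 0.30 ± 0.08 in RVF+ passed (a log2 difference of -0.30, adjusted p = 0.0068), and was -0.22 ± 0.06 without RVF+ 8 (adjusted p = 0.0135). In RVF the difference was -0.09 ± 0.08 and did not pass (adjusted p = 0.52), with a 95% interval of -0.26 to 0.08.

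Taken within each array, Actn1 minus Actn2 averaged -2.32 ± 0.72 in RVF+ (SD, n = 5), -3.02 ± 0.04 in RVF (SD, n = 4) and -3.75 ± 0.09 in CON (SD, n = 7). The balance thus moved toward Actn1 by 1.43 in RVF+ (exact permutation p = 0.00126 over 792 splits, adjusted p = 0.00379) and by 0.74 in RVF (exact permutation p = 0.00303 over 330 splits, adjusted p = 0.00455), again the smallest p the designs allow. RVF+ exceeded RVF by 0.69 with no overlap between the groups, and the exact permutation test gave p = 0.0556 over 126 splits (adjusted p = 0.0667). Without any 1 of the 5 RVF+ arrays that difference was 0.40 (without RVF+ 8) to 0.84, with 4 arrays in each group. The adjusted exact p was 0.0343 each time, from the smallest p that 4 arrays against 4 allow. As the groups do not overlap, that outcome was fixed whichever RVF+ array was left out, so it adds no evidence of a difference. This pair, too, was picked with the separate values known. The level of one probe set is not compared with that of the other here, only the change of their difference.

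**Figure D2:**
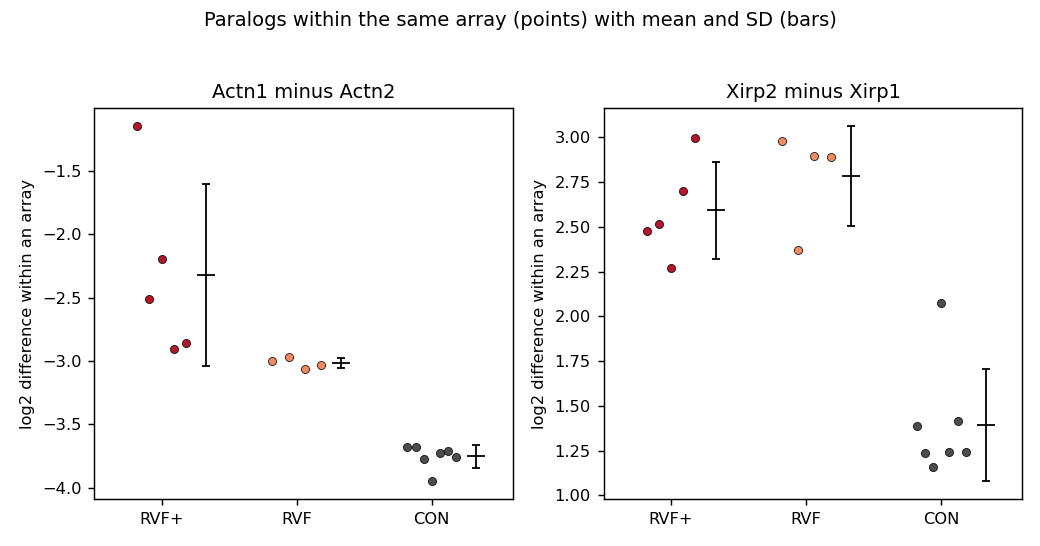
Within-array log2 differences of Actn1 minus Actn2 and of Xirp2 minus Xirp1 (points, 1 per array) by group, with mean and SD beside them. For both pairs every RVF+ and RVF array lies above all 7 CON arrays, and RVF+ 8 stands highest for the alpha-actinins.

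Actn1 is also expressed by fibroblasts, smooth muscle, endothelium and macrophages. Marker lists of fibroblasts, of macrophages and of smooth muscle with pericytes had higher sums beside it. In the last of these lists Pdgfrb, Mcam and Cspg4 were called higher in both groups and Tagln in RVF+ only. The smooth muscle markers Myh11, Cnn1, Smtn and Lmod1 passed in neither, nor did Rgs5 and Notch3. The endothelial sums overlapped with CON, in RVF+ only through RVF+ 8 (2803). Without that array 3 of 8 endothelial markers were called higher in RVF+. The summed intensity of 12 fibroblast markers was 11190 to 12700 in RVF+, 10814 to 12683 in RVF and 8349 to 9809 in CON, with 9 of 12 called higher in RVF+ and 8 in RVF. For 9 macrophage markers the sums were 1968 to 5133 in RVF+, 1618 to 2321 in RVF and 984 to 1453 in CON, all 9 being higher in RVF+ and 6 in RVF, and the highest sum was that of RVF+ 8. For 10 markers of smooth muscle and pericytes they were 3608 to 4097 in RVF+, 3619 to 4346 in RVF and 3161 to 3465 in CON, with 4 called higher in RVF+ and 3 in RVF, and for 8 endothelial markers 2803 to 4629 in RVF+, 2820 to 3550 in RVF and 2786 to 3023 in CON, with 2 called higher in RVF+ and the other 6, like all 8 in RVF, not passing. The sum of 11 cardiomyocyte markers was 25856 to 40058 in RVF+, the lowest being RVF+ 8, 38714 to 40984 in RVF and 44576 to 46481 in CON. In RVF+ 4 were called lower, Myh6, Tnni3, Ryr2 and Pln, and the others did not pass. Myh6 fell most, averaging 11.17 in RVF+, 11.73 in RVF and 12.51 in CON, so the sum reflects it more than most other markers. In RVF limma called 0 of the 11, and 3 were called lower there when RVF+ 8 was left out of the shared fit. Among markers of atrial muscle, 7 in number, the sums were 6243 to 7827 in RVF+, 7593 to 9139 in RVF and 2724 to 4752 in CON, but the list did not move one way, with 3 higher and 1 lower in RVF+ and 2 higher and 3 lower in RVF. Its sum followed Nppa, the atrial natriuretic peptide gene, which ventricles under load also express and which averaged 11.99 in RVF+, 12.30 in RVF and 7.73 in CON on the log2 scale, while Myl7 differed from CON by -1.52 in RVF+ (adjusted p = 0.0661) and -1.93 in RVF (adjusted p = 0.045). For 7 markers of skeletal muscle the sums were 1642 to 3429 in RVF+, 3124 to 3394 in RVF and 4052 to 4410 in CON, and they followed Ckm, the muscle creatine kinase gene that the heart also expresses, which averaged 11.41 in RVF+, 11.63 in RVF and 12.03 in CON. Of these 7 markers Tnni2 and Tnnt3 were called higher and Ckm lower in RVF+, and Tnnt3 higher in RVF. Tnni2 was dim, averaging 4.19 in RVF+, 3.79 in RVF and 3.55 in CON, against a median of 5.57 over all genes. Nppa, Ckm, Tnni2, Tnnt3 and the named markers of cardiomyocytes, smooth muscle and pericytes were singled out after their values were seen. In bulk tissue fewer cells of a type and less RNA per cell cannot be told apart, and the part of these cells in the values of Actn1, Actn2 and the other members was not tested.

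Ldb3 encodes the PDZ and LIM domain protein ZASP, also named Cypher, which binds alpha-actinin and keeps the Z-disc intact under load. Its values were 8.78, 9.59, 9.30, 9.58 and 9.57 in RVF+ 8 to 12 and 9.23, 9.82, 9.77 and 9.66 in RVF 13 to 16, and CON ran from 9.92 through a median of 10.17 to 10.22. Every RVF+ and every RVF array lay below every CON array. Ldb3 fell most of the 10 genes, 1.66-fold in RVF+ (-0.73 ± 0.13, adjusted p = 0.000571) and 1.39-fold in RVF (-0.48 ± 0.14, adjusted p = 0.0279). The call in RVF was near the threshold and was lost without RVF 13, its lowest array, at -0.35 ± 0.14 (adjusted p = 0.133), without RVF 16 (adjusted p = 0.0565) and without CON 3 (adjusted p = 0.05), with the same direction each time.

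Nebl, which encodes nebulette, a nebulin-like protein of the cardiac Z-disc, had 8.96, 9.15, 9.41, 9.58 and 9.51 in RVF+ 8 to 12 and 9.68, 9.55, 9.56 and 9.53 in RVF 13 to 16. CON ran from 9.71 through a median of 9.87 to 10.05, so all RVF+ and RVF arrays lay below it, RVF 13 by a narrow margin. The fall in RVF+ was 1.45-fold (-0.53 ± 0.10, adjusted p = 0.000556). In RVF the difference of -0.28 ± 0.10 did not pass (adjusted p = 0.0804), but it passed without RVF+ 8 in the shared fit (adjusted p = 0.0232), with array weights (adjusted p = 0.0161) and in a fit of RVF and CON alone (adjusted p = 0.0112). For Ldb3 and Nebl 1 value stands for all splice forms, so forms that moved apart would not be seen.

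Myoz2 and Des did not pass in any comparison. Myoz2 encodes calsarcin-1 (its promoter also holds a MEF2 box), which tethers calcineurin to alpha-actinin, and differed from CON by -0.18 ± 0.11 in RVF+ (adjusted p = 0.249) and by -0.08 ± 0.12 in RVF (adjusted p = 0.697). Its RVF+ values other than that of RVF+ 8, which was 10.55, lay between 11.18 and 11.39, against 11.19 to 11.33 in RVF and 11.28 to 11.39 in CON. Without RVF+ 8 the difference from CON was -0.03 ± 0.06. Des, which encodes desmin, lay between 11.87 and 12.19 in all arrays and differed from CON by 0.09 ± 0.06 in RVF+ (adjusted p = 0.339, 95% interval -0.05 to 0.22) and by 0.14 ± 0.07 in RVF (adjusted p = 0.168, 95% interval 0.00 to 0.29).

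**Figure D3:**
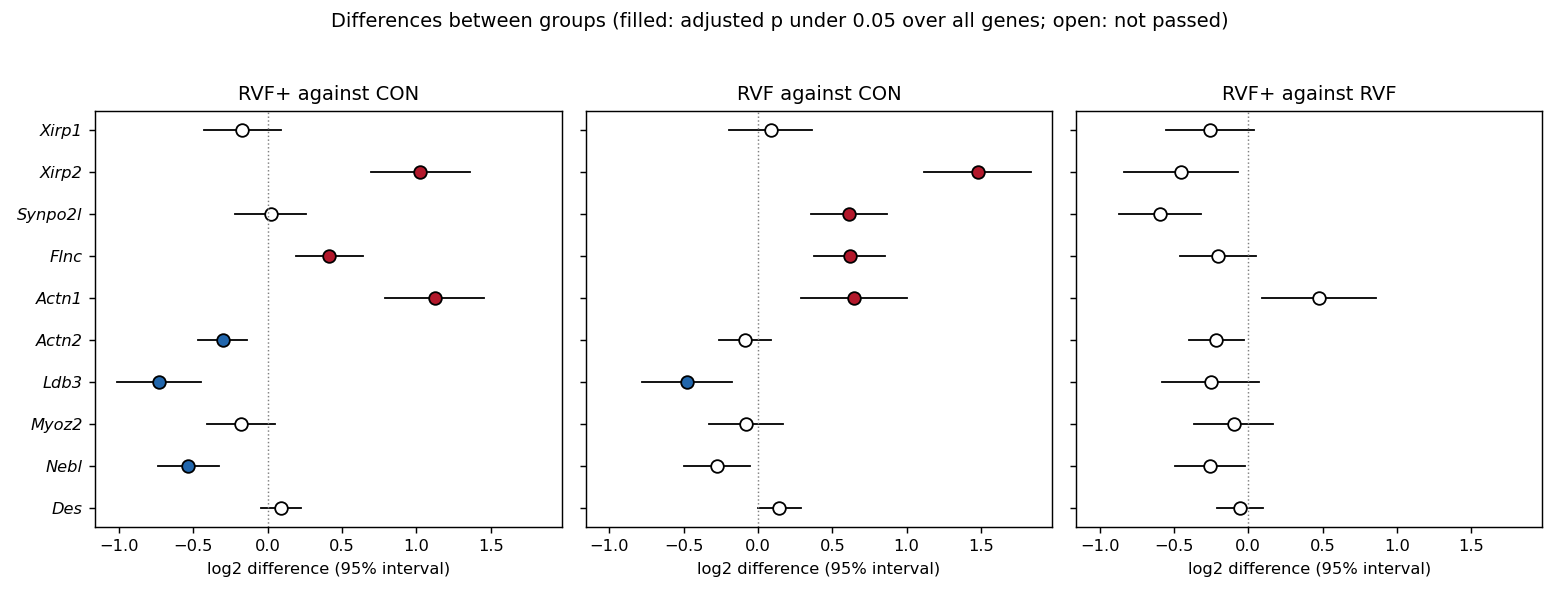
Log2 differences of the 10 genes with 95% intervals in the 3 comparisons; filled points passed limma's test over all genes (red higher, blue lower) and open points did not. Xirp2, Flnc and Actn1 are filled red and Ldb3 blue in both comparisons with CON, and all points are open between RVF+ and RVF.

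Between RVF+ and RVF none of the 10 genes passed limma's adjusted test, and 0 of all 17245 genes did. At an unadjusted p under 0.05 it was 5 of the 10, Synpo2l, Xirp2, Actn2 and Nebl being lower and Actn1 higher in RVF+, against 7.2% of all genes (4.26% lower and 2.94% higher). That count was not stable, being 2 in a fit of these 2 groups alone and 7 with array weights. It was 3 without RVF+ 9, RVF+ 10 or RVF 15. The arrays of RVF+ and RVF did not overlap for Synpo2l and Actn2, 2 of the 10, both lower in RVF+, against 1.74% of all genes (1.15% lower). In 9 of the 10 genes the RVF+ mean lay below the RVF mean, against 51.8% of all genes, and in 8 of 10 without RVF+ 8, Myoz2 changing sign. Other heart muscle genes leaned the same way, with medians of -0.12 for 11 cardiomyocyte markers and -0.18 for 13 intercalated disc genes. These medians were -0.02 and -0.08 without RVF+ 8. The median of the 10 genes was -0.23, and that of 9 macrophage markers went the other way, at 0.37, or 0.16 without RVF+ 8. With all arrays the lean was thus shared by other heart muscle genes. Without RVF+ 8 it was weaker in those 2 lists, while 8 of the 10 genes still lay lower in RVF+. The median over all genes was then -0.01. Against CON, groups did not overlap for 4 of the 10 genes in RVF+ (14.6% of all genes) and for 7 in RVF (18.8%), among them Actn2 and Nebl, which did not pass there.

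Other genes of the Z-disc and its surroundings were read from 7 lists, in which the 10 genes are not counted. Partners of Xin and related scaffolds were mixed, with 2 of 9 higher and 1 lower in RVF+ and 3 higher and 1 lower in RVF, and medians of -0.02 and 0.12. Enah, the actin regulator Mena, which binds Xin, rose 1.76-fold in RVF+ (0.82 ± 0.11, adjusted p = 5.58e-05) and 2.05-fold in RVF (1.04 ± 0.12, adjusted p = 1.88e-05). Lasp1, a LIM protein of the nebulin family, rose by 0.64 ± 0.13 in RVF+ (adjusted p = 0.00145) and by 0.45 ± 0.14 in RVF (adjusted p = 0.035). Nrap, a nebulin-related anchoring protein of the intercalated disc, differed from CON by 0.25 ± 0.12 in RVF+ (adjusted p = 0.126) and rose by 0.43 ± 0.12 in RVF (adjusted p = 0.0224). Vcl, which encodes vinculin, fell by 0.27 ± 0.07 in RVF+ (adjusted p = 0.00857) and by 0.26 ± 0.08 in RVF (adjusted p = 0.0244).

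Of 14 alpha-actinin relatives and PDZ-LIM or LIM partners 7 rose and 2 fell in RVF+, and 6 rose and 2 fell in RVF, with medians of 0.31 and 0.32 against -0.01 over all genes. The LIM protein gene Csrp2 rose 2.62-fold in RVF+ (1.39 ± 0.21, adjusted p = 0.000103) and 3.69-fold in RVF (1.88 ± 0.22, adjusted p = 1.89e-05). Its muscle relative Csrp3, a Z-disc protein linked to stretch sensing, rose by 0.36 ± 0.08 in RVF+ (adjusted p = 0.00232) and by 0.45 ± 0.09 in RVF (adjusted p = 0.00127). Pdlim5, a PDZ-LIM relative of Ldb3, rose by 0.62 ± 0.11 in RVF+ (adjusted p = 0.000352) and by 0.59 ± 0.11 in RVF (adjusted p = 0.00151), opposite to Ldb3. Pdlim3, another PDZ-LIM gene, fell as Ldb3 did, by 0.47 ± 0.11 in RVF+ (adjusted p = 0.00441) and by 0.42 ± 0.12 in RVF (adjusted p = 0.0211). Pdlim7 passed only in RVF+, where it rose by 0.29 ± 0.08 (adjusted p = 0.0128), and Pdlim1 and Pdlim2 passed in neither. The Pdlim genes other than Pdlim5 were added after their values were seen. Actn4, the other non-muscle alpha-actinin, rose by 0.48 ± 0.08 in RVF+ (adjusted p = 0.000283) and by 0.34 ± 0.09 in RVF (adjusted p = 0.0103). Fhl2, a LIM protein that binds titin, fell by 0.58 ± 0.09 in RVF+ (adjusted p = 0.000192) and by 0.48 ± 0.10 in RVF (adjusted p = 0.00279).

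Among 15 measured genes of the list of other core Z-disc proteins 4 were higher and 6 lower in RVF+, and 4 higher and 1 lower in RVF, with medians of -0.10 and -0.04. Myot, which encodes myotilin, a partner of alpha-actinin and filamin C, rose 2.55-fold in RVF+ (1.35 ± 0.21, adjusted p = 0.000139) and 2.33-fold in RVF (1.22 ± 0.22, adjusted p = 0.00102). Flna, the widely expressed filamin, rose by 0.59 ± 0.14 in RVF+ (adjusted p = 0.00351) and by 0.45 ± 0.15 in RVF (adjusted p = 0.0424). The skeletal calsarcin Myoz1 differed from CON by 0.22 ± 0.09 in RVF+ (adjusted p = 0.0872) and rose by 0.39 ± 0.10 in RVF (adjusted p = 0.0113). Myoz1 was dim, averaging 4.88 in RVF+, 5.05 in RVF and 4.66 in CON, against a median of 5.57 over all genes. Smyd1, a muscle methyltransferase needed for myofibril assembly, fell by 0.83 ± 0.11 in RVF+ (adjusted p = 2.77e-05) and by 0.52 ± 0.11 in RVF (adjusted p = 0.00456).

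Of 10 intermediate filament genes and linkers 3 rose and 2 fell in RVF+, and 4 rose in RVF with 0 lower. Synm, which encodes synemin, a partner of desmin, rose 1.79-fold in RVF+ (0.84 ± 0.15, adjusted p = 0.000513) and 2.16-fold in RVF (1.11 ± 0.16, adjusted p = 0.000131). Vim, the vimentin gene of mesenchymal cells, rose by 0.52 ± 0.08 in RVF+ (adjusted p = 8.57e-05) and by 0.38 ± 0.08 in RVF (adjusted p = 0.00355). Lmna, the lamin A/C gene, rose by 0.46 ± 0.09 in each comparison (adjusted p = 0.000612 in RVF+ and 0.00211 in RVF). Dmd, the dystrophin gene, fell by 0.62 ± 0.11 in RVF+ (adjusted p = 0.000523) and differed from CON by -0.31 ± 0.12 in RVF (adjusted p = 0.0857).

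The intercalated disc list, whose proteins join myocytes end to end, fell more often than it rose, with 7 of 13 lower and 1 higher in RVF+ and 3 lower and 1 higher in RVF. Its medians were -0.30 and -0.15, and without RVF+ 8 there were 6 lower and 1 higher in each comparison. The desmosomal cadherin Dsc2 fell 1.82-fold in RVF+ (-0.86 ± 0.08, adjusted p = 2.3e-06) and 1.84-fold in RVF (-0.88 ± 0.09, adjusted p = 5.06e-06). The connexin gene Gja1 fell by 0.87 ± 0.12 in RVF+ (adjusted p = 5.37e-05) and by 0.55 ± 0.13 in RVF (adjusted p = 0.0067), and the catenin gene Ctnna3 fell by 0.75 ± 0.13 in RVF+ (adjusted p = 0.000486) and by 0.62 ± 0.14 in RVF (adjusted p = 0.00572). Tln1, the talin of focal adhesions, was the member that rose, by 0.44 ± 0.06 in RVF+ (adjusted p = 2.87e-05) and by 0.48 ± 0.06 in RVF (adjusted p = 3.66e-05).

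In the list of filamin turnover and muscle repair 4 of 15 genes rose and 1 fell in RVF+, and 8 rose and 0 fell in RVF, with medians of 0.03 and 0.34. The membrane-binding annexin gene Anxa2 rose 2.32-fold in RVF+ (1.21 ± 0.14, adjusted p = 1.28e-05) and 2.07-fold in RVF (1.05 ± 0.15, adjusted p = 0.000143), and Myof, which encodes the membrane repair protein myoferlin, rose 2.27-fold in RVF+ (1.19 ± 0.16, adjusted p = 3.66e-05) and 1.80-fold in RVF (0.84 ± 0.17, adjusted p = 0.00211). The annexin gene Anxa1 rose by 0.90 ± 0.13 in RVF+ (adjusted p = 9.57e-05) and by 0.91 ± 0.14 in RVF (adjusted p = 0.000263), and Anxa5 by 0.63 ± 0.10 in RVF+ (adjusted p = 0.000207) and by 0.70 ± 0.11 in RVF (adjusted p = 0.000253). Trim72, which encodes the muscle repair protein MG53, Bag3, the co-chaperone that clears damaged filamin, and the other chaperone genes given below were singled out after their values were seen. Trim72 differed from CON by -0.04 ± 0.11 in RVF+ (adjusted p = 0.847) and rose by 0.42 ± 0.12 in RVF (adjusted p = 0.0239), and Bag3 differed by -0.08 ± 0.09 in RVF+ (adjusted p = 0.589) and 0.09 ± 0.10 in RVF (adjusted p = 0.578). In RVF, Hspb8 rose by 0.43 ± 0.10 (adjusted p = 0.0044), Hspb7 by 0.34 ± 0.08 (adjusted p = 0.00697) and Hspb1 by 0.81 ± 0.22 (adjusted p = 0.0168). None of these heat shock genes passed in RVF+, where Hspb8 differed by 0.15 ± 0.09 (adjusted p = 0.243), Hspb7 by 0.20 ± 0.08 (adjusted p = 0.0521) and Hspb1 by 0.50 ± 0.21 (adjusted p = 0.084). Cryab and Hspa8 passed in neither comparison with CON. In the direct comparison of RVF+ with RVF neither Trim72 (adjusted p = 0.403) nor these heat shock genes passed. A difference between RVF+ and RVF is thus not shown for them.

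**Figure D4:**
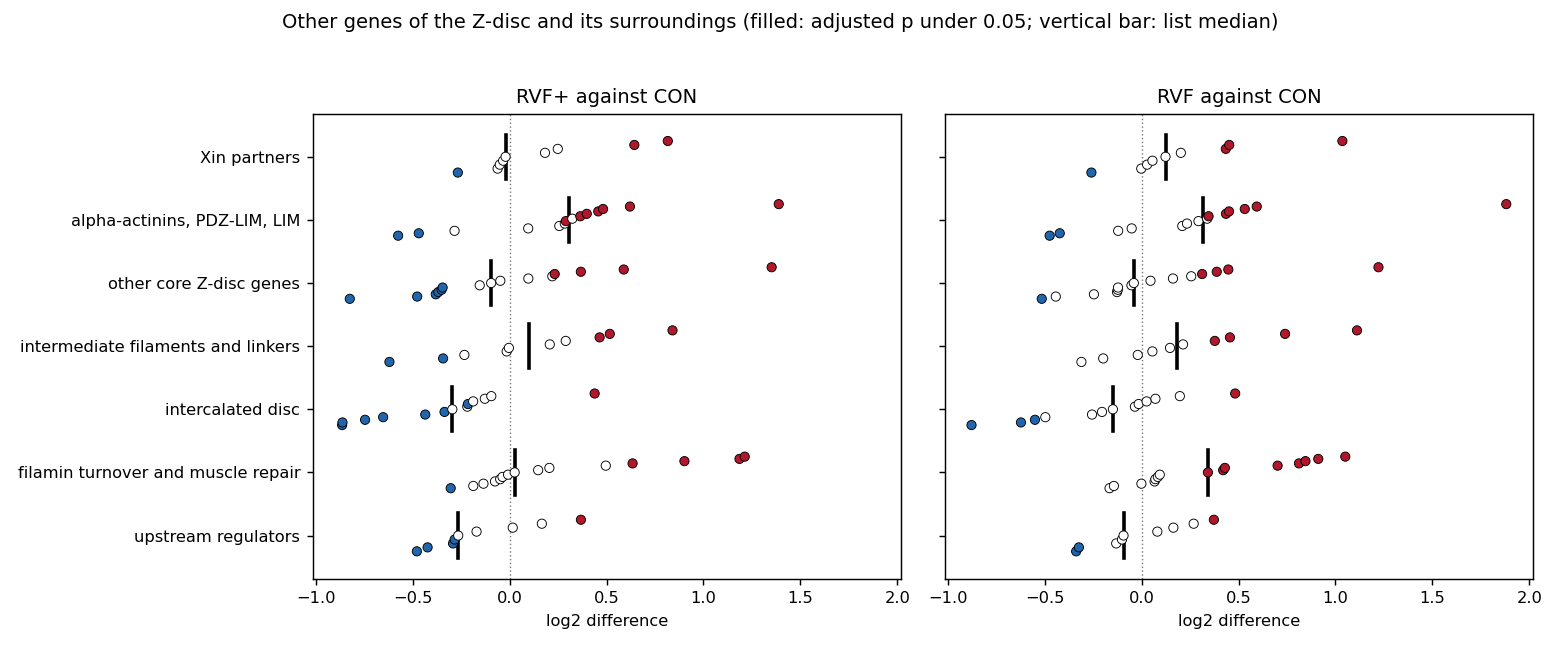
Log2 differences from CON of the other genes in 7 lists (points, 1 per gene) in RVF+ and RVF, with the list median as a vertical bar; filled points passed limma's test. Each of the 7 lists has filled points on both sides of 0 in RVF+, and the alpha-actinin partners have the highest median, 0.31 in RVF+, while the intercalated disc has the lowest, -0.30.

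The genes whose level was most like that of a member over the 16 arrays were found by Pearson's r, a measure that includes the difference between the 3 groups. Xirp2 was followed most closely by Rnd1, a small GTPase (r = 0.974), and by Hsp90aa1, a stress-inducible chaperone (r = 0.961). Rnd1 rose by 1.93 ± 0.21 in RVF+ (adjusted p = 6.43e-06) and by 2.36 ± 0.23 in RVF (adjusted p = 3.07e-06). Actn1 was followed by Ptprj, a receptor tyrosine phosphatase, and by Myof (r = 0.972 each), after Pilrb2l1 (r = 0.983). Actn2 was followed by Cep68 (r = 0.975), by Myom1, which encodes the M-band protein myomesin (r = 0.974), and by Ogdh, an enzyme of the tricarboxylic acid cycle (r = 0.97), and Ldb3 by Phospho1, a phosphatase (r = 0.974). The highest r was 0.936 for Synpo2l (C1h19orf47), 0.909 for Flnc (Uchl1), 0.951 for Myoz2 (Pik3c2b), 0.972 for Nebl (Naa30), 0.925 for Des (RT1-DOb) and 0.844 for Xirp1 (Bclaf1), the lowest of them. By rank the order differed, for Spearman's rho was 0.674 for Myoz2 with Pik3c2b and 0.879 for Xirp1 with Bclaf1. Myoz2 has a lone low value in RVF+ 8, which weighs more on r than on rho. These are descriptions over arrays that share groups, and all of them include RVF+ 8.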

How the data were processed

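RNA from the right ventricular wall was hybridised to Affymetrix arrays after labelling of 500 ng of total RNA, per the labels' protocols. The authors deposited 1 linear intensity per probe set and array, and RMA is the method that the submitters' processing notes name; it corrects background, equalises distributions and summarises probes, and shrinks differences of dim probe sets. Versions and builds were not given in the sources used here. Precision is limited by the number of arrays. Intensities (2.2 to 10294) were converted to log2. Of 29214 probe sets, 18644 had exactly 1 gene symbol in the platform annotation, 962 several and 9608 none. The probe set with the highest mean was kept for each of the 879 genes with several, which left 17245 genes, without a filter. Group means of all 16 arrays were fitted with limma 3.58.1 (lmFit, eBayes) in R 4.3.3, with 13 residual and 4.45 prior degrees of freedom, and Benjamini-Hochberg adjustment over all genes. Paralog pairs were compared by exact permutation of within-array differences. The procedure was tested on simulated data. Robust moderation, an alternative, used statmod 1.5.0.

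The members, gene lists and tests were chosen with earlier results of these data known. Named are all 10 members and, from each list, up to 3 called genes with the smallest p in each comparison, of which a part is described, and for each member the 3 genes with the highest r, likewise in part. Genes said to be singled out or added after their values were seen are named besides these. The lists and marker sets held 173 genes, of which 153 were measured. Summed marker levels are sums of linear intensity.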

Additional observations from a re-analysis of the deposited data

Results flagged for a closer look

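In 5 of 36 sets of values, formed by the 10 genes and the 2 paralog differences in each group, a single array stood apart from its group by Dixon's criterion. Chance flags about 1 in 20 such groups. Myoz2 was 10.55 in RVF+ 8, against 11.18 in the nearest RVF+ array. Xirp2 was 10.8 in CON 4, against 10.31 in the nearest CON array, and without CON 4 its rise was 1.13 in RVF+ and 1.58 in RVF. In CON 4 the difference of Xirp2 minus Xirp1 was accordingly 2.08, against 1.42 in the nearest CON array, and Actn1 minus Actn2 was -3.95, against -3.77. In RVF 14 Xirp2 minus Xirp1 was 2.37, against 2.89 in the nearest RVF array, where Xirp1 was the highest of the RVF arrays.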

How the results depend on the processing

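For the 10 genes in the 3 comparisons 726 values were computed under alternatives (quantile normalization, median centring, only genes at or above the median level, averaged probe sets, the other probe sets of Xirp1, fits of only the 2 groups, moderation with a trend or robust, array weights, and each array left out). No called difference changed sign, 718 values kept their side of the threshold, 3 lost a call and 5 gained one. The 3 losses were those of Ldb3 and the gains those of Xirp1 and Nebl; of the gains only that of Xirp1 in RVF+ with array weights (-0.30, adjusted p = 0.0361) is not given above. The number of the 10 genes called ranged from 6 to 7 in RVF+ against CON and from 4 to 6 in RVF against CON, and was 0 in RVF+ against RVF throughout.

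Over all genes, 2957 passed in RVF against CON, 4466 in a fit on those groups only and 4688 with array weights; the cause was not tested. Between RVF+ and RVF 0 genes passed (1242 at an unadjusted p under 0.05), and 0 to 3 when an array was left out, the 3 without RVF+ 12. Median centring moved the split in RVF+ against CON to 1998 higher and 3004 lower, from 2423 and 2348. The within-array difference of Actn1 minus Actn2 between RVF+ and RVF was 0.40 to 0.84 when an array was left out; the 5 sets without an RVF+ array have groups of equal size. List counts without RVF+ 8 were added after seeing the data. No paired analysis was possible because the groups share no sample numbers.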

Other observations

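The list of upstream regulators holds MEF2 and serum response factor genes, their coactivators and histone deacetylases that repress MEF2. Of its 9 measured genes 4 were lower and 1 higher in RVF+ against CON, and 2 lower and 1 higher in RVF against CON, with medians of -0.27 and -0.09. Hdac5, a repressor of MEF2, fell by 0.48 ± 0.08 in RVF+ (limma adjusted p = 0.00017) and by 0.34 ± 0.08 in RVF (adjusted p = 0.0079), and Mef2c fell by 0.28 ± 0.07 in RVF+ (adjusted p = 0.00536) and differed from CON by -0.13 ± 0.07 in RVF (adjusted p = 0.257). Mef2b differed from CON by -0.17 ± 0.09 in RVF+ (adjusted p = 0.197) and fell by 0.32 ± 0.10 in RVF (adjusted p = 0.0348). Mef2b was dim, averaging 3.89 in RVF+, 3.74 in RVF and 4.06 in CON on the log2 scale, against a median of 5.57 over all genes. Its values may lie near background. Mrtfa, a coactivator of serum response factor, rose by 0.37 ± 0.10 in RVF+ (adjusted p = 0.00751) and by 0.37 ± 0.10 in RVF (adjusted p = 0.0172). Myocd, which encodes the coactivator myocardin, fell by 0.42 ± 0.09 in RVF+ (adjusted p = 0.00236) and differed from CON by 0.16 ± 0.10 in RVF (adjusted p = 0.295). Its direct difference between RVF+ and RVF was -0.59 ± 0.11 (unadjusted p = 3.35e-05), which did not pass over all genes (adjusted p = 0.289).

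After the group means were removed, Actn1 ran against Nebl over the 16 arrays (r = -0.854) and over the 15 arrays without RVF+ 8 (r = -0.747). Actn1 and Actn2 gave r = -0.865 with RVF+ 8 and -0.459 without it, and Actn1 and Myoz2 gave -0.815 and 0.202. Xirp2 and Actn1, which both rose, gave 0.0925 over 16 arrays and -0.806 without RVF+ 8. These values are descriptions over few arrays.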
